A study of Mus musculus with 30 samples.

Results

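Gasdermins are the proteins that form pores in the plasma membrane during the inflammatory cell death called pyroptosis. The 9 mouse genes Gsdma, Gsdma2, Gsdma3, Gsdmc, Gsdmc2, Gsdmc3, Gsdmc4, Gsdmd and Gsdme were taken from a deposited table of read counts with 55487 Ensembl identifiers, by the symbol that each identifier carries in the annotation, and their levels were compared over 5 pathological stages of oral carcinogenesis. RNA was sequenced from 30 mouse samples. By their labels 3 were normal, 8 were hyperplasia, 7 were dysplasia, 6 were carcinoma in situ and 6 were invasive carcinoma. The mice were C57BL/6J males that were 6 weeks old when they began to drink 4-nitroquinoline 1-oxide (4NQO, a water-soluble compound whose DNA adducts lead to squamous cell carcinoma of the mouth), at 100 ug/mL and for 10 weeks. That treatment, and the tissue name oral squamous cell carcinoma, stand on every sample, the normal ones included, so the labels name no untreated animals. The labels do not say whether each sample came from a different mouse, and p-values therefore measure the spread between these samples. Sample codes begin with D in normal tissue, with A in hyperplasia, with B in dysplasia and with C at either carcinoma stage, so any batch tied to the code letter cannot be told apart from stage, except where carcinoma in situ and invasive carcinoma are compared.

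A gasdermin is made as an inactive protein in which a carboxy-terminal domain holds down a pore-forming amino-terminal domain. A protease cuts the linker between them, the freed amino-terminal parts assemble into a ring in the membrane, and cytokines of the interleukin-1 family pass out through the pore. Gsdmd is the target of the inflammatory caspases, human GSDMC has been described as a target of caspase-8, and human GSDMA is cut by a streptococcal protease. The A and C genes are best known from surface epithelia such as skin, the upper digestive tract and the gut, and the mouse carries several copies of each. RNA levels say nothing of how much of a gasdermin was cut.

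The 3 Gsdma genes lie side by side on chromosome 11 of GRCm38, all on the plus strand. Gsdma3 (ENSMUSG00000064224.10) is at chr11:98626360-98638226, Gsdma2 (ENSMUSG00000017211.14) at chr11:98646759-98657964 and Gsdma (ENSMUSG00000017204.4) at chr11:98664351-98677708. The 4 Gsdmc genes form a row on the minus strand of chromosome 15. Gsdmc (ENSMUSG00000079025.9) is at chr15:63775968-63808759, Gsdmc2 (ENSMUSG00000056293.12) at chr15:63824346-63845177, Gsdmc3 (ENSMUSG00000055827.13) at chr15:63857724-63878558 and Gsdmc4 (ENSMUSG00000055748.12) at chr15:63891264-63912297. Gsdmd (ENSMUSG00000022575.5) lies elsewhere on that chromosome at chr15:75862327-75867408, plus strand, and Gsdme (ENSMUSG00000029821.15) at chr6:50188888-50263862, minus strand.

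The copies within each row are near relatives, and a count for one of them depends on how well short reads tell it from the next. The opening 90 coding bases are shown for the 7 clustered genes because the results turn on counting Gsdmc apart from Gsdmc2, Gsdmc3 and Gsdmc4, and Gsdma apart from Gsdma2 and Gsdma3. They were read 5′ to 3′ from the GENCODE M21 transcripts of GRCm38. In Gsdmc and in Gsdma, capitals mark each base that differs from at least 1 other copy of the same row, and in the other copies they mark each base that differs from Gsdmc or from Gsdma.
Gsdmc: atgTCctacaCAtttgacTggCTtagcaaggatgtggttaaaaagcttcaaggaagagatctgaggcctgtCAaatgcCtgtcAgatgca
Gsdmc2: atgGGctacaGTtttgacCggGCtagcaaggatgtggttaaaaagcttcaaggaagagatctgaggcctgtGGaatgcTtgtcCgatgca
Gsdmc3: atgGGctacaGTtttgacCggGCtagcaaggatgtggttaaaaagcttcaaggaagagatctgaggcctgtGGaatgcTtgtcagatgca
Gsdmc4: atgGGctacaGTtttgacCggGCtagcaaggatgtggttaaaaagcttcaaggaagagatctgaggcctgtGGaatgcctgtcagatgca
Gsdma: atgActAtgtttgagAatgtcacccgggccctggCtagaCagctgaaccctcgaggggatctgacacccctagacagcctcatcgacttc
Gsdma2: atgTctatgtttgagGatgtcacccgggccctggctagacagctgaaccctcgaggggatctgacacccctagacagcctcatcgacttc
Gsdma3: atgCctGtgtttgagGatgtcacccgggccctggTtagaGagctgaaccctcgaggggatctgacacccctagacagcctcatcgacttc
In this stretch Gsdmc2, Gsdmc3 and Gsdmc4 differ from Gsdmc at 11, 10 and 9 bases, and most of those changes are common to all 3. Gsdma2 differs from Gsdma at 2 bases and Gsdma3 at 5 bases.

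Over the whole coding sequence Gsdmc was 87.0% identical to Gsdmc2, 87.2% to Gsdmc3 and 87.5% to Gsdmc4, while Gsdmc2 and Gsdmc3 were 97.1% identical to each other. Gsdma was 90.9% identical to Gsdma2 and 89.8% to Gsdma3. Of all 100-base stretches of the annotated transcripts, untranslated parts included, 7.03% in Gsdmc, 28.6% in Gsdmc2, 28.4% in Gsdmc3 and 20.2% in Gsdmc4 also occur in another of the 9 genes, against 1.83% in Gsdma, 1.45% in Gsdma2 and none in Gsdma3, Gsdmd or Gsdme. For 50-base stretches the shares were 16.1% in Gsdmc, 51.3% in Gsdmc2, 46.0% in Gsdmc3 and 39.0% in Gsdmc4. They were 8.26% in Gsdma, 5.10% in Gsdma2 and 5.71% in Gsdma3, with none in Gsdmd or Gsdme. Counts of Gsdmc2, Gsdmc3 and Gsdmc4 are therefore uncertain wherever the counting, whose tool and handling of shared reads are not given in the sources used here, could split them. Counts of Gsdma, Gsdmc and Gsdmd rest mainly on sequence of their own. The 3′ end of Gsdme overlaps Mpp6 on the opposite strand at chr6:50188888-50198939, and since the strand setting of the counting is not given either, reads of the pair in that stretch cannot be told apart.

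Total counts ran from 17725604 to 28023098 per sample. Levels are given in CPM, counts scaled to the size of the library with TMM factors, and differences as log2 fold changes ± SE from edgeR's quasi-likelihood fit over 17638 genes, called at a Benjamini-Hochberg adjusted p under 0.05 across those genes. Before any gasdermin is described, the make-up of the samples has to be given. Krt5, a keratin of basal squamous cells, was abundant, with 2060590 counts in all, and the summed level of 10 squamous epithelium markers ran from 8956 to 10769 CPM in normal samples, 9935 to 14012 in hyperplasia, 9948 to 18278 in dysplasia, 12234 to 20280 in carcinoma in situ and 14102 to 29911 in invasive carcinoma. Of those 10 markers, 2, 8, 9 and 9 were called higher than in normal tissue at the 4 lesion stages, in the order hyperplasia, dysplasia, in situ and invasive. The sum of 10 skeletal muscle markers ran the other way, at 54294 to 72192 CPM in normal samples, 34997 to 62343 in hyperplasia, 26239 to 47904 in dysplasia, 26251 to 45656 in carcinoma in situ and 16025 to 39382 in invasive carcinoma, and 2, 8, 8 and 9 of the 10 were called lower, with 1 called higher in hyperplasia. Without normal sample 2 the counts were 0, 1, 5 and 7 for the squamous list and 0, 1, 4 and 7 for the muscle list. Of all tested genes, 8.22%, 13.3%, 19.4% and 23.4% were called higher in the main fit and 6.07%, 12.4%, 18.2% and 22.7% lower. Fewer genes were called without normal sample 2. The marker counts below stand against the same shares. The summed neutrophil markers were at 4.5 to 14.1 CPM in normal samples, 16.9 to 1358 in hyperplasia, 375 to 1400 in dysplasia, 704 to 3858 in carcinoma in situ and 1292 to 7070 in invasive carcinoma. Most of that sum came from S100a8 and S100a9, which squamous keratinocytes can also make, at means of 1631 and 2380 CPM in invasive carcinoma, where Csf3r averaged 12.9 and Cxcr2 7.49 CPM. Salivary gland markers varied within every stage, with sums of 49.9 to 9932 CPM among the normal samples alone, and normal sample 1 held the highest of these. Because these are bulk samples, fewer cells of a type and less RNA per cell cannot be told apart in any value below. Normal sample 2 also had the lowest mean log2 level of differentiated keratinocyte markers of the 3, at 8.64 against 9.21 and 9.07 in normal samples 1 and 3, so each result that leans on the normal group was repeated without it.

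The oral tissue carried RNA of 2 gasdermins above all. Summed over the 30 samples, Gsdma gave 59.7% and Gsdmc 38.0% of the 281969 counts of the family. Gsdmd gave 1.88%, Gsdme 0.274% and Gsdmc2 0.125%, and Gsdmc4, Gsdmc3, Gsdma2 and Gsdma3 had 39, 9, 7 and 4 counts in all. Per kilobase of exon the order was the same at the top, with mean levels over all samples of 91.2 CPM per kb for Gsdma, 65.6 for Gsdmc, 3.31 for Gsdmd and 0.226 for Gsdmc2. Gsdme stood at 0.0890 CPM per kb over all its annotated exons, and at 0.453 CPM per kb over its longest coding transcript, so its place relative to Gsdmc2 depends on the length used.

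The least abundant members were close to the limit of detection. Gsdma2 had at most 1 count in any sample and was seen in 7 of 30. Gsdma3, the gene whose mutations give hair loss in mice, had counts in 3 samples and at most 2. Gsdmc3 had counts in 8 samples and at most 2. Gsdmc4 had counts in 23 samples and at most 5, with sums of 3, 11, 7, 9 and 9 in the order of the stages. Its pooled CPM ratio of invasive carcinoma to normal was 1.41, with an exact 95% interval of 0.353 to 8.12 that covers counting error only, so a change of Gsdmc4 was not detectable at this depth. These 4 genes did not pass the expression filter, and the remaining 5 members were tested. Pjvk, the gasdermin relative known from hearing, had 11 counts in all and was not tested.

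**Figure D1:**
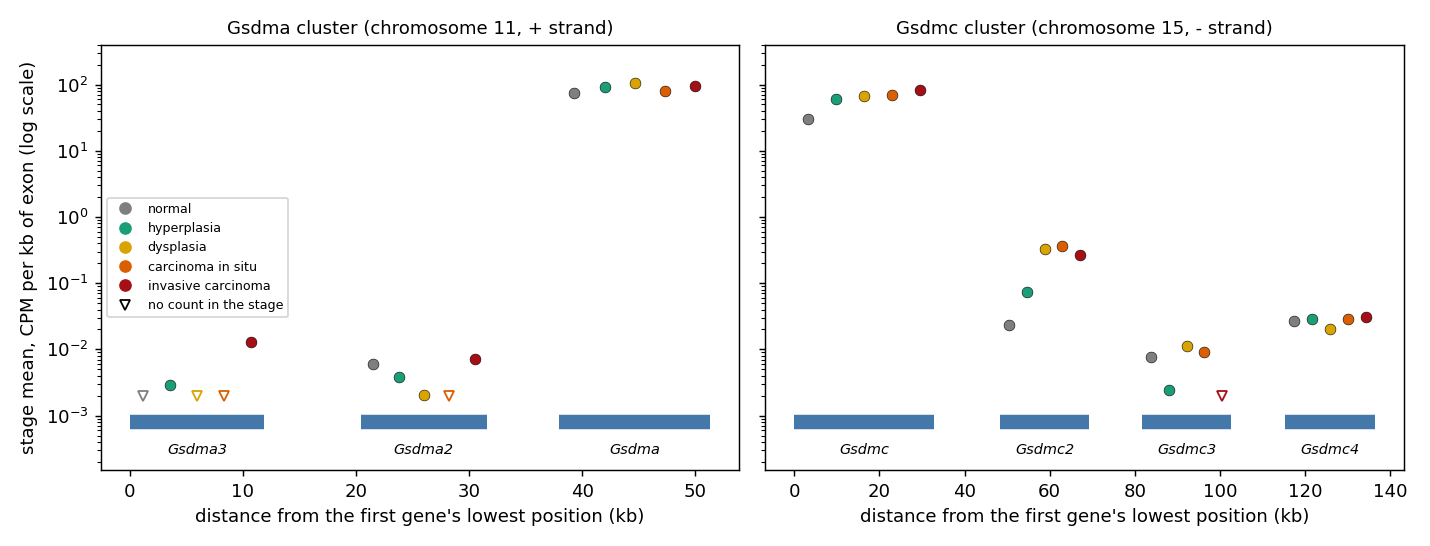
Mean level of each gasdermin at each stage, in CPM per kb of exon on a log axis, against the distance in kb along the Gsdma row of chromosome 11 and the Gsdmc row of chromosome 15; triangles mark stages without a count. In each row 1 gene, Gsdma or Gsdmc, stands far above its neighbours at every stage.

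Against normal tissue, 2 of the 5 tested gasdermins were called in hyperplasia, Gsdmc and Gsdmd, both higher, where 14.3% of all tested genes were called (8.22% higher and 6.07% lower). In dysplasia 3 were called, Gsdmc, Gsdmc2 and Gsdma, all higher, where 25.7% of all tested genes were called (13.3% higher and 12.4% lower). At both carcinoma stages the called members were Gsdmc and Gsdmc2, 2 of 5 each time and both higher. Gsdmc2 was tested only because dysplasia and carcinoma samples let it pass the expression filter. Against normal tissue or hyperplasia it could thus hardly be called lower. Of all tested genes, 37.6% were called in carcinoma in situ (19.4% higher and 18.2% lower) and 46.1% in invasive carcinoma (23.4% higher and 22.7% lower). At the carcinoma stages the share of members called was thus near that of all genes. The median log2 fold change of all tested genes was between 0.01 and 0.02 in these 4 comparisons. These comparisons share the 3 normal samples. Between successive stages, dysplasia against hyperplasia gave 1 called member, Gsdmc2, where 5.18% of tested genes were called (2.99% higher and 2.19% lower). Carcinoma in situ against dysplasia gave 0 called members by edgeR, with 1 by DESeq2 and 1 by limma-voom (Gsdma in both), where 5.47% of tested genes were called by edgeR (2.99% higher and 2.47% lower). Invasive carcinoma against carcinoma in situ gave 0 called members and 0 called genes by edgeR (0%), with 0 genes by DESeq2 and 0 by limma-voom, although 1259 genes had an unadjusted p under 0.05 by edgeR. Invasive carcinoma against hyperplasia gave 2 called members, Gsdmc and Gsdmc2, both higher, where 38.4% of tested genes were called (19.1% higher and 19.2% lower). A test for any difference among the 5 stages called Gsdmc, Gsdmc2, Gsdmd and Gsdma, with adjusted p of 1.29e-05, 0.00281, 0.0241 and 0.0320 in edgeR, and not Gsdme (adjusted p = 0.386), where 53.2% of tested genes were called. Without normal sample 2, Gsdma was not called by that test (adjusted p = 0.0775).

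**Figure D2:**
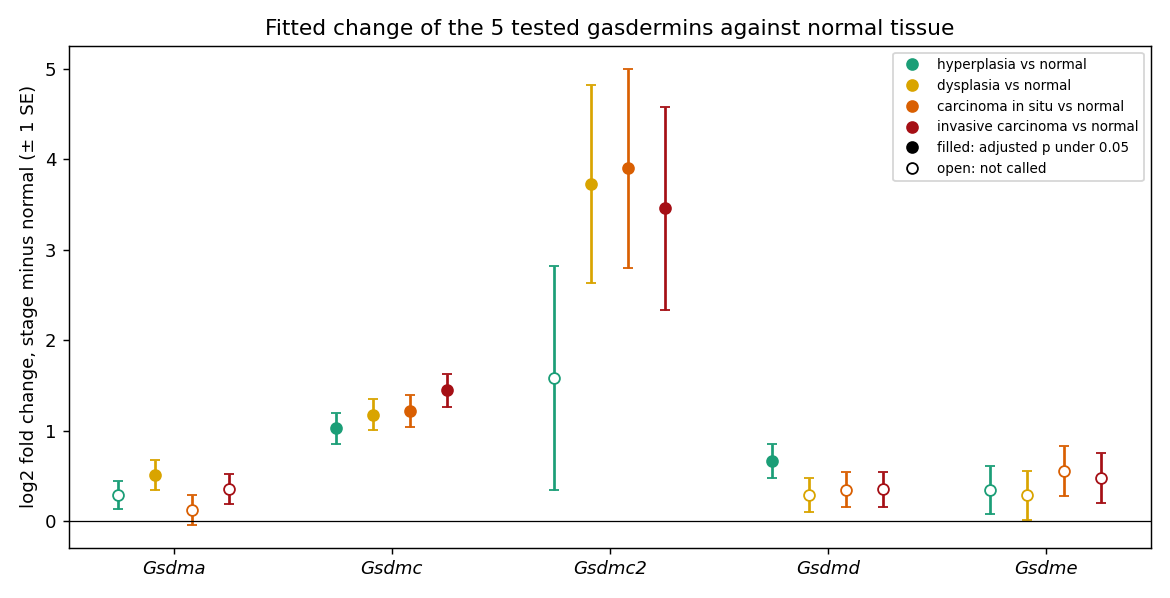
Log2 fold change against normal tissue (± 1 SE, edgeR) of the 5 tested gasdermins at the 4 later stages; filled points were called at an adjusted p under 0.05. Gsdmc is called at all 4 stages, with fold changes that run from 1.02 in hyperplasia to 1.44 in invasive carcinoma.

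Gsdmc was higher than in normal tissue at every lesion stage. Its level was 72.0, 63.3 and 81.9 CPM in normal samples 1, 2 and 3. In hyperplasia it ran from 117 to 216 CPM with a median of 136, and in dysplasia from 143 to 208 with a median of 147. In carcinoma in situ it ran from 147 to 206 CPM with a median of 167, and in invasive carcinoma from 152 to 235 with a median of 199.8. Every one of the 27 lesion samples was above all 3 normal samples, while the 4 lesion stages overlapped one another. The stage means were 72.4 ± 9.33, 147 ± 31.8, 164 ± 28.1, 169 ± 22.2 and 197 ± 33.7 CPM (SD, n = 3, 8, 7, 6 and 6) in the order of the stages.

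Gsdmc rose 2.03-fold in hyperplasia relative to normal tissue, a log2 fold change of 1.02 ± 0.17 (adjusted p = 0.000192, edgeR). The fold was 2.26 in dysplasia (log2 1.18 ± 0.17, adjusted p = 8.73e-05), 2.33 in carcinoma in situ (log2 1.22 ± 0.18, adjusted p = 2.24e-05) and 2.72 in invasive carcinoma (log2 1.44 ± 0.18, adjusted p = 2.17e-06). All samples of a stage lay above all normal samples for 9.13%, 11.6%, 14.1% and 17.2% of tested genes in these 4 comparisons. All 4 calls held when any 1 sample was left out, normal sample 2 included, with log2 fold changes of 0.92 to 1.11, 1.09 to 1.27, 1.13 to 1.32 and 1.36 to 1.55. The steps between neighbouring lesion stages did not pass the test. The log2 difference was 0.15 ± 0.12 for dysplasia against hyperplasia, 0.04 ± 0.13 for carcinoma in situ against dysplasia, and 0.22 ± 0.14 for invasive carcinoma against carcinoma in situ (adjusted p = 0.486, 0.880 and 0.742, edgeR). In invasive carcinoma relative to hyperplasia, Gsdmc rose by 0.42 ± 0.13 on the log2 scale (adjusted p = 0.0101). That call did not hold with the squamous marker score (0.27, adjusted p = 0.414) or the muscle marker score (0.38, adjusted p = 0.118) as a covariate.

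The squamous share of the tissue moved with Gsdmc, as given above. With the mean log2 level of the 10 squamous markers as a covariate in the fit, the fold changes against normal tissue stayed called at 0.95, 1.03, 1.04 and 1.21 on the log2 scale, with adjusted p of 0.00065, 0.0043, 0.0067 and 0.0056. That score ran from 9.37 to 9.63 in normal samples, 9.82 to 10.51 in carcinoma in situ and 9.98 to 10.89 in invasive carcinoma. Without overlap, the fit cannot separate squamous share from stage at the carcinoma stages. The limit also holds for invasive carcinoma against hyperplasia, where hyperplasia ran from 9.49 to 9.95. Over the 30 samples, which share libraries and depth between the values compared, log2 Gsdmc correlated with the squamous score at r = 0.671 and rho = 0.678, and within stages at r = 0.225. Its correlation with the neutrophil marker score was r = 0.732 and rho = 0.764, and 0.390 within stages. Of the 8 neutrophil markers tested, 2, 3, 5 and 5 were called higher than in normal tissue over the 4 stages, or 0, 2, 4 and 5 without normal sample 2. Among the defining neutrophil genes Ly6g had 46 counts over all samples and was not tested. The part of neutrophils in the Gsdmc values was not tested.

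The genes most like Gsdmc over the 30 samples were Sprr2f, Sprr2e and Sprr2i, members of the small proline-rich family that is laid down in the cornified envelope of squamous cells. Their log2 levels correlated with that of Gsdmc at r = 0.940, 0.921 and 0.909 (rho = 0.894, 0.883 and 0.879). Within stages the correlations were 0.768, 0.723 and 0.779. Sprr2f averaged 0.033, 19.1, 39.9, 41.2 and 103 CPM over the 5 stages, so its range over the stages was far wider than that of Gsdmc.

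**Figure D3:**
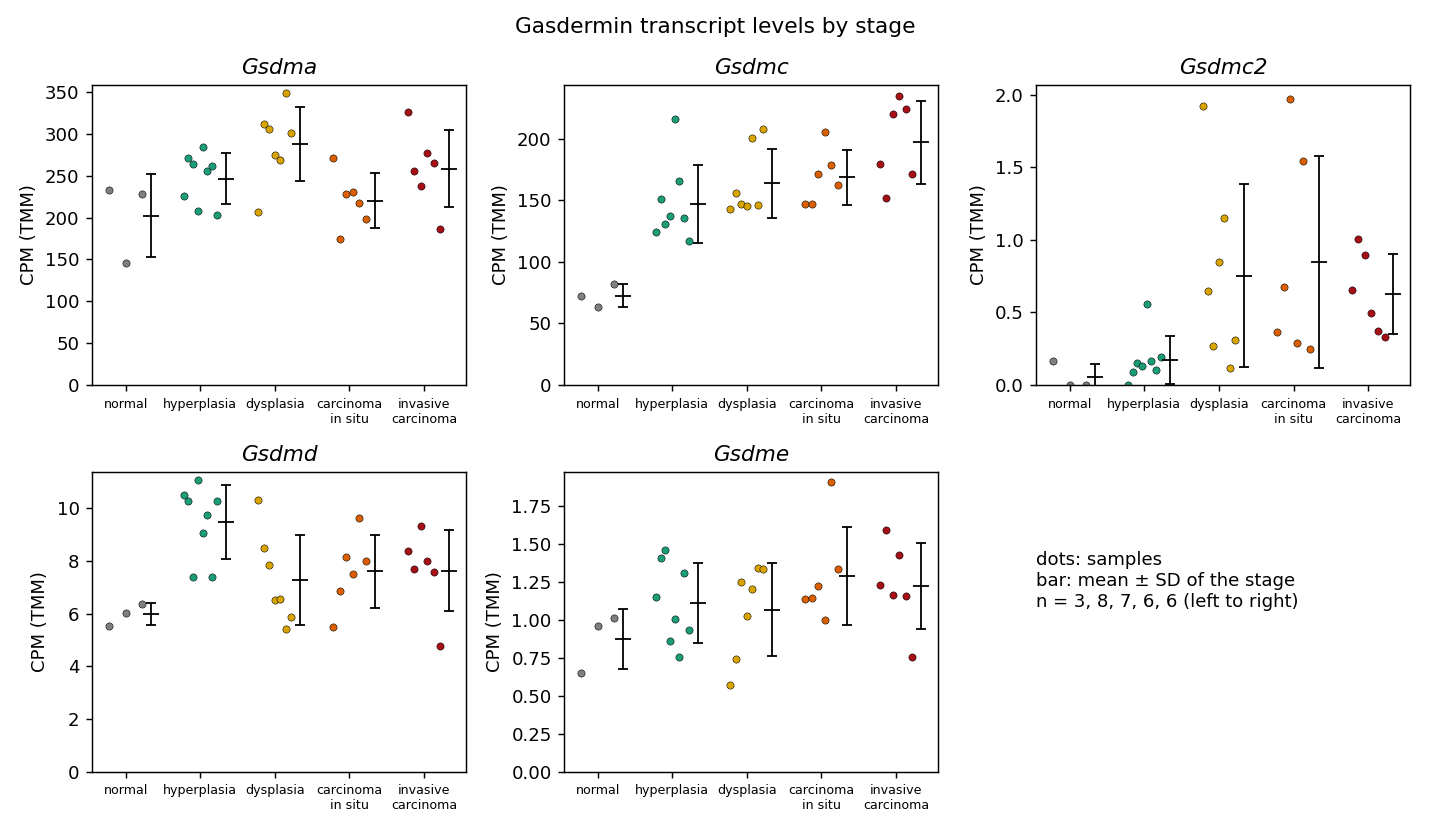
Level in CPM of Gsdma, Gsdmc, Gsdmc2, Gsdmd and Gsdme in each of the 30 samples by stage, with the mean and SD of each stage. Gsdmc shows no overlap between the 3 normal and the 27 lesion samples, Gsdmd has its highest mean in hyperplasia, and Gsdma and Gsdme overlap across the stages.

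Gsdmc2, the copy next to Gsdmc, was called higher than in normal tissue from dysplasia on, at a far lower level. It had 0.163, 0 and 0 CPM in normal samples 1, 2 and 3, which is 3 counts in all. Hyperplasia samples ran from 0 to 0.560 CPM with a median of 0.139, and dysplasia samples from 0.118 to 1.92 with a median of 0.650. Carcinoma in situ samples ran from 0.250 to 1.97 CPM with a median of 0.522, and invasive carcinoma samples from 0.331 to 1.01 with a median of 0.578. All carcinoma samples and 6 of 7 dysplasia samples were above the highest normal sample, and hyperplasia overlapped the normal samples. Full separation above normal held for 14.1% of tested genes at the in situ stage and 17.2% at the invasive stage. With 3 normal counts and a filter passed only through lesion samples, such separation of Gsdmc2 says little by itself. The stage means were 0.0542 ± 0.0939, 0.173 ± 0.167, 0.752 ± 0.629, 0.849 ± 0.730 and 0.627 ± 0.278 CPM (SD).

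Pooled over the samples of a stage, the CPM ratio of Gsdmc2 to normal was 3.45 in hyperplasia (exact 95% interval 1.07 to 17.7), 15.6 in dysplasia (5.22 to 77.0), 18.2 in carcinoma in situ (6.10 to 89.7) and 13.2 in invasive carcinoma (4.36 to 65.3). These intervals cover counting error only. Gsdmc2 was called higher than in normal tissue in dysplasia (log2 3.73 ± 1.10, adjusted p = 0.0145, edgeR), in carcinoma in situ (3.90 ± 1.10, adjusted p = 0.00705) and in invasive carcinoma (3.46 ± 1.12, adjusted p = 0.0134). These fitted values lean on the few counts of the normal group. Gsdmc2 passed the expression filter only through lesion samples, so that filter largely fixed the direction of its calls against normal tissue. The difference in hyperplasia was 1.58 ± 1.24 (adjusted p = 0.420). With normal sample 2 left out, the adjusted p was 0.0939 in dysplasia and 0.0621 in invasive carcinoma, and without normal sample 3 it was 0.0725 and 0.0695. Between lesion stages, Gsdmc2 was 2.14 ± 0.61 higher on the log2 scale in dysplasia than in hyperplasia (adjusted p = 0.0362, edgeR). Hyperplasia had 28 counts of Gsdmc2 in all, against 116 in dysplasia. Since the filter was passed through dysplasia and carcinoma samples, it largely fixed the direction against hyperplasia too. The call in dysplasia against hyperplasia was lost in 9 of the 15 fits that left out a sample of either stage, at adjusted p of 0.0543 to 0.0735.

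Gsdmc2 stayed a small part of what the pair produced. Its share of the Gsdmc and Gsdmc2 counts averaged 0.0751%, 0.108%, 0.472%, 0.499% and 0.333% over the 5 stages and reached 1.32% in 1 sample. Since 28.6% of its 100-base stretches occur in another member, some Gsdmc2 counts could belong to a copy. The genes most like it were Chil4, a chitinase-like protein (r = 0.844, rho = 0.825, 0.796 within stages), Sprr2a3, another small proline-rich gene (r = 0.842, rho = 0.837, 0.790 within stages), and Cfap69 (r = 0.770, rho = 0.753, 0.427 within stages). Chil4 averaged 30.6, 198, 874, 665 and 358 CPM over the 5 stages, with its highest mean in dysplasia. Gsdmc2 correlated with Gsdmc itself at r = 0.581 over the 30 samples, and at 0.169 within stages. With the neutrophil marker score its correlation was r = 0.682 and rho = 0.744, and 0.333 within stages, and with the squamous score r = 0.341 and rho = 0.373, but -0.478 within stages. Their part in the Gsdmc2 values was not tested.

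Gsdma, the most abundant member, differed less between stages. It stood at 233, 145 and 228 CPM in normal samples 1, 2 and 3. Hyperplasia samples ran from 203 to 284.7 CPM with a median of 259, dysplasia samples from 207 to 348 with a median of 301. Carcinoma in situ samples ran from 174 to 272 CPM with a median of 223, and invasive carcinoma samples from 187 to 326 with a median of 261. Normal sample 2 was the lowest of all 30 and every other range overlapped the remaining normal samples. The stage means were 202 ± 49.3, 246 ± 30.7, 288 ± 44.3, 219.8 ± 32.9 and 258 ± 46.0 CPM (SD).

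Relative to normal tissue Gsdma rose 1.42-fold in dysplasia, a log2 fold change of 0.51 ± 0.16 (adjusted p = 0.0225, edgeR), with 6 of 7 samples above all normal samples. Without normal sample 2 the value was 0.32 and the adjusted p 0.253. With the squamous score as a covariate it was 0.42 (adjusted p = 0.236), and with the muscle score 0.46 (adjusted p = 0.186). The other differences from normal did not pass the test, at 0.29 ± 0.16 in hyperplasia (adjusted p = 0.231), 0.12 ± 0.16 in carcinoma in situ (adjusted p = 0.589) and 0.35 ± 0.17 in invasive carcinoma (adjusted p = 0.0818). The 95% interval in carcinoma in situ was -0.20 to 0.44, so a fold of the size seen for Gsdmc there lies outside it. Carcinoma in situ was 0.39 lower than dysplasia on the log2 scale (-0.39 ± 0.13, adjusted p = 0.0682, edgeR), a difference that passed the threshold with DESeq2 (adjusted p = 0.0370) and limma-voom (adjusted p = 0.0178).

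Gsdma varied along with markers of differentiated keratinocytes. Over the 30 samples its log2 level correlated with the mean log2 level of 15 markers of differentiated and cornifying keratinocytes at r = 0.800 and rho = 0.790, at 0.750 within stages and at 0.746 without the 2 samples farthest from the median score, a check added after the data had been seen. The markers were summed at 43265 to 64757 CPM in normal samples, 51708 to 71428 in hyperplasia, 50599 to 87383 in dysplasia, 53755 to 81645 in carcinoma in situ and 54773 to 74943 in invasive carcinoma. Of the 15, 6, 7, 7 and 7 were called higher than in normal tissue over the 4 stages, and 1 and 2 were called lower in carcinoma in situ and invasive carcinoma. The genes most like Gsdma were Smpd3, which encodes a neutral sphingomyelinase (r = 0.945, rho = 0.934, 0.942 within stages), Acp7 (r = 0.915, rho = 0.897, 0.894 within stages) and Epn3, an epsin of the endocytic machinery (r = 0.912, rho = 0.872, 0.874 within stages). Smpd3 averaged 110, 165, 212, 143 and 183 CPM over the 5 stages, lowest in normal tissue and highest in dysplasia, as was Gsdma.

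The balance of the 2 abundant members was described within each library, where depth cancels, with no test of its own. The log2 ratio of Gsdmc to Gsdma counts was -1.46 ± 0.249 in normal samples, -0.76 ± 0.206 in hyperplasia and -0.81 ± 0.320 in dysplasia, and -0.38 ± 0.262 and -0.39 ± 0.331 in carcinoma in situ and invasive carcinoma samples (SD). The carcinoma in situ samples lay between -0.89 and -0.16 and the normal samples between -1.70 and -1.20, without overlap. The hyperplasia samples, at -1.02 to -0.40, and the invasive carcinoma samples, at -0.86 to -0.11, did not overlap the normal samples either, while dysplasia, at -1.25 to -0.42, did. How often the ratios of other gene pairs separate in this way was not computed. Gsdmc made up 26.1 ± 3.13% of the family's counts in normal samples and 36.2 ± 3.29%, 35.6 ± 4.92%, 42.4 ± 4.15% and 42.5 ± 5.49% in the 4 lesion stages in order. Per kilobase, Gsdma stood at 94.6 CPM per kb and Gsdmc at 81.9 in invasive carcinoma, against 74.1 and 30.1 in normal tissue.

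**Figure D4:**
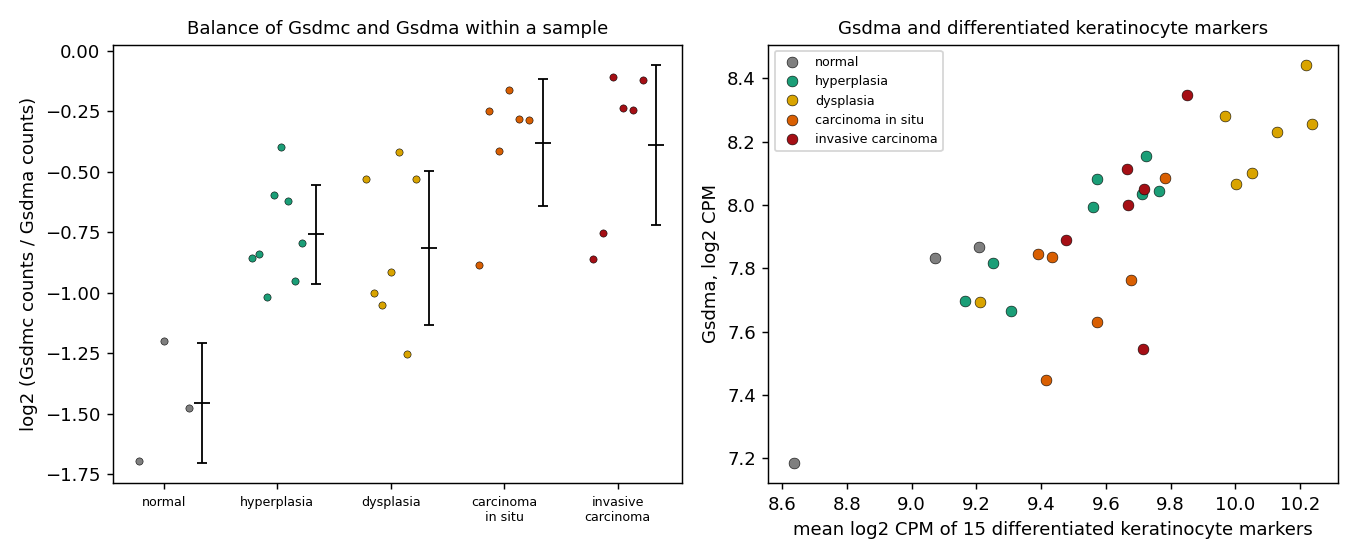
Left, log2 ratio of Gsdmc to Gsdma counts in each sample by stage; right, Gsdma level (log2 CPM) against the mean log2 CPM of 15 differentiated keratinocyte markers over the 30 samples, coloured by stage. The ratio averages -0.39 in invasive carcinoma and -1.46 in normal samples, and Gsdma runs along with the marker score at r = 0.800.

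Gsdmd, the gasdermin cut by the inflammatory caspases, had its highest mean CPM in hyperplasia. It stood at 5.53, 6.03 and 6.37 CPM in normal samples 1, 2 and 3. Hyperplasia samples ran from 7.39 to 11.1 CPM with a median of 9.99, dysplasia samples from 5.41 to 10.3 with a median of 6.54. Carcinoma in situ samples ran from 5.50 to 9.61 CPM with a median of 7.77, and invasive carcinoma samples from 4.78 to 9.34 with a median of 7.85. All 8 hyperplasia samples were above the 3 normal samples, as held for 9.13% of tested genes, and the other stages overlapped both. The stage means were 5.98 ± 0.425, 9.46 ± 1.40, 7.29 ± 1.71, 7.60 ± 1.38 and 7.62 ± 1.53 CPM (SD).

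Gsdmd rose 1.58-fold in hyperplasia relative to normal tissue (log2 0.66 ± 0.19, adjusted p = 0.0192, edgeR). The adjusted p was 0.0611 without normal sample 1 and 0.0793 without normal sample 2. At the 3 later stages the differences from normal were 0.28 ± 0.19, 0.35 ± 0.19 and 0.35 ± 0.19 on the log2 scale (adjusted p = 0.278, 0.162 and 0.140). With the muscle score as a covariate these 3 passed the threshold, at 0.65, 0.72 and 0.83 (adjusted p = 0.0307, 0.0085 and 0.0069), and they did so with the squamous score, at 0.68, 0.87 and 0.99 (adjusted p = 0.0352, 0.0153 and 0.0160). The muscle scores of these 3 stages, and the squamous scores of the carcinoma stages, did not overlap the normal ones. Score and stage could not be separated there. Dysplasia was 0.38 lower than hyperplasia (-0.38 ± 0.14, adjusted p = 0.111) and invasive carcinoma 0.31 lower (-0.31 ± 0.15, adjusted p = 0.0903), neither past the threshold by edgeR on all samples. The dysplasia difference passed it with limma-voom (adjusted p = 0.0117), and by edgeR without dysplasia sample 1 (-0.47, adjusted p = 0.0286). For invasive carcinoma against hyperplasia the direction turned with the squamous score (0.13) and the muscle score (0.033). The value for hyperplasia against normal was 0.86 with the squamous score and 0.80 with the muscle score (adjusted p = 0.00089 and 0.00083).

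The Gsdmd values had other correlates. Its log2 level correlated at r = -0.338 (rho = -0.293, -0.627 within stages) with the squamous score, at r = 0.440 (rho = 0.370, 0.657 within stages) with the muscle score, and at r = 0.554 (rho = 0.544, 0.380 within stages) with a score of T and NK cell markers. It was r = 0.514 (rho = 0.547, 0.368 within stages) with macrophage and monocyte markers and r = 0.464 (rho = 0.488, 0.417 within stages) with fibroblast markers. Each correlation is over 30 samples that share library and depth. The summed T and NK cell markers were at 2.20 to 5.80 CPM in normal samples, 8.82 to 16.6 in hyperplasia, 3.87 to 15.4 in dysplasia, 7.30 to 16.7 in carcinoma in situ and 7.74 to 15.7 in invasive carcinoma. Of the 8 tested, 4, 3, 6 and 5 were called higher than in normal tissue, or 3, 0, 3 and 3 without normal sample 2. Their part in the Gsdmd values was not tested. The genes most like Gsdmd were Jak3, a kinase of cytokine receptors on lymphocytes (r = 0.839, rho = 0.782, 0.743 within stages), Psmb9, a subunit of the immunoproteasome (r = 0.789, rho = 0.770, 0.650 within stages), and Mpp3 (r = 0.786, rho = 0.757, 0.645 within stages). Psmb9 averaged 5.87, 21.1, 11.7, 12.1 and 10.3 CPM over the 5 stages, with its highest mean in hyperplasia.

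Gsdme, the gasdermin known from hereditary hearing loss in humans, was not called in any of the 8 comparisons with edgeR, although carcinoma in situ against normal passed with the salivary score as a covariate (log2 0.68, adjusted p = 0.0403). It stood at 0.650, 0.957 and 1.01 CPM in normal samples 1, 2 and 3. Hyperplasia samples ran from 0.757 to 1.46 CPM with a median of 1.08, dysplasia samples from 0.57 to 1.34 with a median of 1.20. Carcinoma in situ samples ran from 0.997 to 1.91 CPM with a median of 1.18, and invasive carcinoma samples from 0.757 to 1.59 with a median of 1.19. All stages overlapped. The differences from normal over the 4 stages were 0.34 ± 0.27, 0.28 ± 0.27, 0.56 ± 0.28 and 0.48 ± 0.28 on the log2 scale, with adjusted p of 0.417, 0.475, 0.115 and 0.165 (edgeR). Their approximate 95% intervals were -0.18 to 0.87, -0.25 to 0.82, 0.01 to 1.10 and -0.07 to 1.02, so a doubling lies inside the interval only at the 2 carcinoma stages. These intervals run somewhat narrower than the test. In carcinoma in situ the unadjusted p was 0.0547 by edgeR although the interval starts at 0.01. Its nearest genes by pattern, Bloc1s3, Slc10a6 and Bud23, reached r = 0.668, 0.658 and 0.657 (rho = 0.587, 0.660 and 0.592), weaker than those of the other members.

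Most of the proteases known to cut gasdermins were higher in carcinoma than in normal tissue. Of 8 tested, 5, 3, 6 and 6 were called higher than in normal tissue over the 4 lesion stages, with median log2 fold changes of 0.65, 0.33, 0.83 and 0.87. Of all tested genes, 8.22%, 13.3%, 19.4% and 23.4% were called higher. The protease counts were 2, 2, 5 and 5 when normal sample 2 was left out. Calls over all genes then fell from 2519 to 926 in hyperplasia and from 4540 to 1282 in dysplasia. With the squamous score as a covariate the protease counts were 5, 1, 3 and 1, and calls over all genes fell at every stage. Casp4, which encodes mouse caspase-11, the sensor of cytosolic lipopolysaccharide that cuts Gsdmd, averaged 1.87, 4.64, 7.14, 9.16 and 11.3 CPM over the 5 stages, with log2 fold changes against normal of 1.31 ± 0.31, 1.93 ± 0.32, 2.29 ± 0.33 and 2.60 ± 0.33, all called. Casp1, the inflammasome protease, averaged 32.3, 50.5, 58.0, 66.2 and 61.1 CPM and was called at all 4 stages, by 0.64 ± 0.15, 0.84 ± 0.15, 1.03 ± 0.16 and 0.92 ± 0.16. Casp8, the initiator caspase of death receptors, was called at all 4 stages by smaller amounts, 0.41 ± 0.09, 0.35 ± 0.09, 0.41 ± 0.09 and 0.58 ± 0.09. Without normal sample 2, the hyperplasia values of Casp1, Casp4 and Casp8 had adjusted p of 0.076, 0.059 and 0.053, and that of Casp8 in dysplasia 0.075.

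The sensors upstream were called in both directions, at shares close to those of all genes from dysplasia on. Of 12 tested inflammasome genes, 1, 1, 2 and 3 were called higher and 2, 2, 2 and 3 lower than in normal tissue over the 4 stages, with median log2 fold changes of 0.25, 0.40, 0.46 and 0.53. The shares of all tested genes called in either direction were 14.3%, 25.7%, 37.6% and 46.1%. With normal sample 2 left out they were 0, 0, 2 and 2 higher and 1, 1, 2 and 2 lower. Nlrp10, a NOD-like receptor of keratinocytes, fell at all 4 stages, to 32.1, 43.6, 33.9 and 32.6 CPM against 65.5 CPM in normal tissue (log2 -1.03 ± 0.17, -0.59 ± 0.18, -0.95 ± 0.18 and -1.0 ± 0.18). Nlrp3, the sensor of potassium efflux in myeloid cells, rose in carcinoma in situ (2.87 ± 0.64) and invasive carcinoma (3.60 ± 0.65), where it averaged 1.77 and 2.93 CPM against 0.235 CPM in normal tissue. Mefv, which encodes pyrin, was called at all 4 stages by 1.96 ± 0.53, 1.70 ± 0.54, 2.79 ± 0.54 and 3.0 ± 0.54, and without normal sample 2 its adjusted p was 0.102 in hyperplasia and 0.128 in dysplasia. Nlrp12, another NOD-like receptor of myeloid cells, averaged 0.742 CPM in invasive carcinoma against 0.054 CPM in normal tissue, where it was close to the limit of detection, and was called there (adjusted p = 0.024, or 0.094 without normal sample 2). Pycard, the adaptor ASC, chosen here after its values were seen, averaged 110, 96.3, 99.4, 105 and 103 CPM over the 5 stages and was not called against normal tissue.

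Most of the tested genes of interleukin-1 family cytokines and their inhibitors were higher in carcinoma than in normal tissue. Of 10 tested interleukin-1 family genes and inhibitors, 4, 4, 7 and 8 were called higher than in normal tissue, and 1 was called lower at each carcinoma stage. Their median log2 fold changes were 0.56, 0.74, 1.02 and 1.30. Of all tested genes, 8.22%, 13.3%, 19.4% and 23.4% were called higher. The list counts without normal sample 2 were 0, 2, 6 and 7, and with the squamous score as a covariate they were 2, 1, 2 and 1. Calls over all tested genes fell under both settings as well. Il1b, the cytokine most tied to pyroptosis, averaged 0.319, 2.52, 2.86, 19.4 and 28.8 CPM over the 5 stages and rose by 5.89 ± 0.97 on the log2 scale in carcinoma in situ and by 6.46 ± 0.98 in invasive carcinoma. Il1rn, the receptor antagonist, averaged 38.9, 55.5, 104, 164 and 201 CPM and was called from dysplasia on, by 1.41 ± 0.37, 2.08 ± 0.39 and 2.37 ± 0.40. The epithelial cytokines interleukin-36 gamma (listed as Il1f9) and interleukin-36 alpha (listed as Il1f6) averaged 182 and 424 CPM in invasive carcinoma, against 61.8 and 82.5 CPM in normal tissue. Il18, chosen here after its values were seen, was the member called lower, with log2 fold changes of -0.80 ± 0.23 and -0.69 ± 0.23 at these stages. When normal sample 2 was left out, Il1b had adjusted p of 0.164 in hyperplasia and 0.099 in dysplasia, Il1f9 0.068 in hyperplasia and Il1rn 0.069 in dysplasia.

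Genes of membrane rupture and repair were called against normal tissue no more often than all tested genes. Of 10 tested, 0, 1, 0 and 2 were called higher and 1, 1, 2 and 2 lower than in normal tissue by edgeR, with medians of -0.14, -0.12, 0.01 and 0.08. The shares of all tested genes called in either direction were 14.3%, 25.7%, 37.6% and 46.1%. In invasive carcinoma relative to hyperplasia 6 were called higher and 1 lower, where 38.4% of all tested genes were called, and 8 of the 10 were called in the test over the 5 stages, where 53.2% were. Chmp4c, a subunit of the ESCRT machinery that sheds damaged membrane, fell in carcinoma in situ (-0.63 ± 0.13) and invasive carcinoma (-0.50 ± 0.13), to 57.7 and 63.0 CPM against 89.2 CPM in normal tissue. Pdcd6ip, which encodes the ESCRT adaptor ALIX, rose by 0.32 ± 0.08 in invasive carcinoma, a call lost without normal sample 2 (adjusted p = 0.053). Ninj1, the protein that ruptures the membrane after pore formation, averaged 20.8, 16.4, 17.5, 22.4 and 22.5 CPM and was not called against normal tissue. Tsg101, another ESCRT subunit, differed by 0.19 ± 0.08 in invasive carcinoma (adjusted p = 0.053).

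Most of the calls among interferon-driven genes fell in hyperplasia. Of 10 guanylate-binding proteins, interferon regulatory factors and related genes, 6, 1, 2 and 1 were called higher than in normal tissue, with medians of 1.05, 0.59, 0.27 and 0.08. Of all tested genes, 8.22%, 13.3%, 19.4% and 23.4% were called higher, so after hyperplasia the list was near or below those shares. The list counts became 1, 0, 0 and 0 without normal sample 2, where calls over all genes fell too. With the squamous score as a covariate the list counts were 8, 3, 2 and 1. Relative to hyperplasia, 5 of the 10 were called lower in invasive carcinoma. Irf9, the DNA-binding part of the type I interferon complex, rose by 1.10 ± 0.19 in hyperplasia (adjusted p = 0.00028), to 57.8 CPM against 27.0 CPM in normal tissue, and stood at 28.8 CPM in invasive carcinoma. Gbp3 rose by 1.39 ± 0.42 and Irgm1 by 1.04 ± 0.34 in hyperplasia, calls lost without normal sample 2 (adjusted p = 0.097 and 0.133). Gbp7 differed by 1.15 ± 0.40 (adjusted p = 0.052).

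Necroptosis is another death program that breaks the membrane. Of its 4 genes tested, 3 were called higher than in normal tissue at each of the 4 stages, with medians of 1.34, 0.81, 0.80 and 0.99, and without normal sample 2 the counts were 2, 2, 2 and 3. Of all tested genes, 8.22%, 13.3%, 19.4% and 23.4% were called higher in the main fit, and fewer genes were called without that sample. Mlkl, the executioner that permeates the membrane, averaged 2.4 CPM in normal tissue and 9.08, 5.21, 8.03 and 8.62 CPM in the lesion stages in order, with log2 fold changes of 1.91 ± 0.22, 1.11 ± 0.22, 1.73 ± 0.23 and 1.83 ± 0.23, all called. Ripk3, the kinase that activates Mlkl, was called at all 4 stages by 1.0 ± 0.17, 0.80 ± 0.17, 1.08 ± 0.17 and 1.16 ± 0.17. Zbp1, a sensor of Z-form nucleic acid that interferon induces, was called in hyperplasia alone (1.68 ± 0.50, adjusted p = 0.024, and 0.104 without normal sample 2). Ripk1, the partner kinase of Ripk3, rose by 0.81 ± 0.14 in invasive carcinoma.

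**Figure D5:**
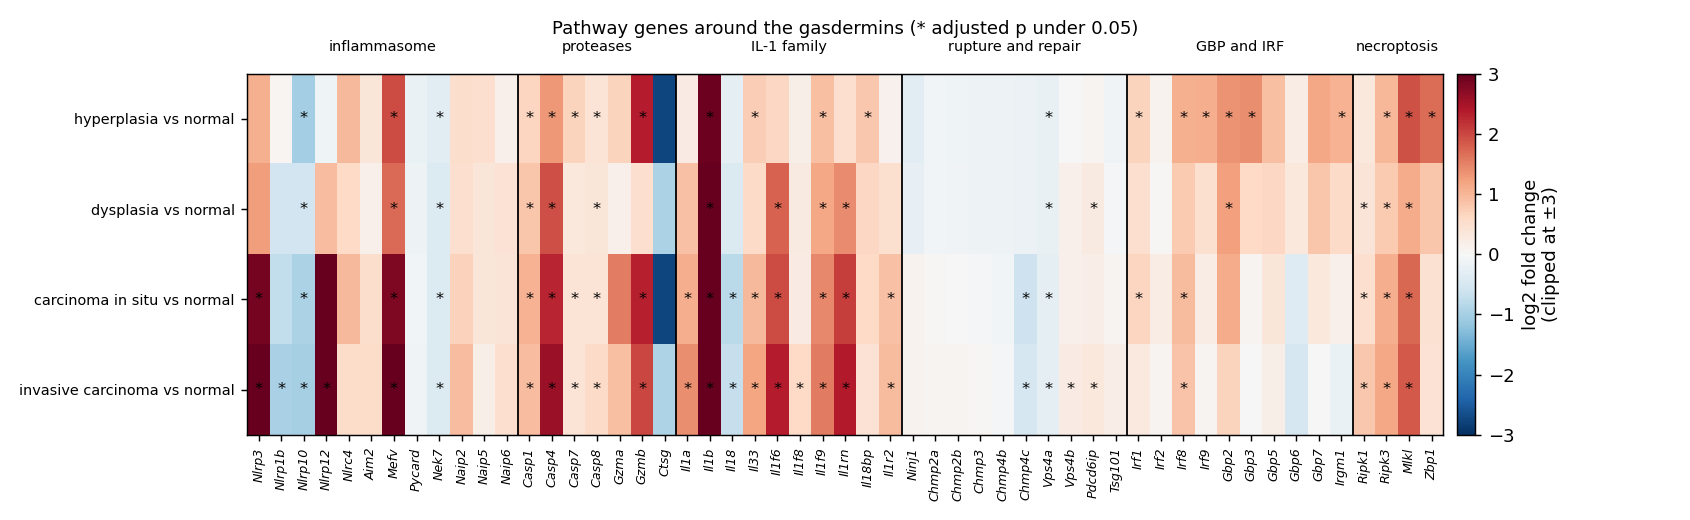
Log2 fold change against normal tissue of genes of the 6 lists around the gasdermins at the 4 later stages, with colours clipped at 3 in either direction and an asterisk on called values. Casp4, Casp1, Mlkl and Ripk3 are called at all 4 stages, while the calls of the interferon-driven genes stand mostly in hyperplasia.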

How the data were processed

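The authors deposited 1 table of raw read counts per Ensembl gene for the 30 samples. Per the labels' protocols, RNA was isolated with the AllPrep kit and libraries were made with a TruSeq stranded mRNA kit. Per the submitters' processing notes, cutadapt 2.4, STAR 2.7.2a and GRCm38 were used. The counting tool, its strand setting and its annotation are not given in the sources used here. Of 55487 identifiers, 55227 (99.53%) matched GENCODE M21.

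edgeR 4.0.16 in R 4.3.3 gave TMM factors (0.892 to 1.057), CPM, the expression filter and a quasi-likelihood fit with 1 mean per stage over all 30 samples (biological coefficient of variation 24.0%). The 8 two-sided comparisons and an F-test over the stages were each adjusted by Benjamini-Hochberg over 17638 genes. On simulated data with 200 changed genes, hyperplasia against normal (17427 genes) recovered 30.4% at 1.5-fold, 73.3% at 2-fold and 91.3% at 4-fold. Alternatives were DESeq2 1.42.0, limma-voom with sample weights (limma 3.58.1), other scalings, no filter, 2-group fits, marker score covariates, a replicate block and each sample left out. The gasdermins and all lists were chosen with earlier results of these data known. Named list genes are the up to 4 with the smallest F-test adjusted p, with 1 gene not reported here, and likeness was ranked by Pearson correlation of log2 CPM, predicted genes left out. Counts of list calls under each alternative, and correlations without 2 samples, were added after the data had been seen. No pair of samples was identical. Exact intervals of pooled ratios cover counting error only, while those of log2 fold changes come from the fit's SE. The latter use the normal quantile and so run somewhat narrower than the test itself.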

Additional observations from a re-analysis of the deposited data

Results flagged for a closer look

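In hyperplasia, Gsdmc2 stood at 0.560 CPM in 1 sample (sample 5 of that stage) against 0.196 CPM in the next highest, a gap of 0.650 of the whole range of the 8 samples, past the 95% limit of Dixon's test. The same sample had the highest Gsdmc level of its stage, at 216 CPM. In carcinoma in situ, Gsdme stood at 1.91 CPM in 1 sample (sample 10) against 1.34 CPM in the next highest, a gap of 0.628 of the range of the 6 samples, just past that limit. Chance alone gives such a sample in about 1 in 20 groups.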

How the results depend on the processing

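Gsdmc kept its calls against normal tissue under all alternatives run. The count of called members in dysplasia against hyperplasia was 1, with 0 without the expression filter, in the 2-group fit and with the replicate block, and 2 with limma-voom. In carcinoma in situ against dysplasia it was 0, and 1 with DESeq2, limma-voom or the muscle score, and in invasive carcinoma against hyperplasia 2, and 1 with the squamous or muscle score, the replicate block or the 2-group fit. Leaving out each sample gave 1 to 2 members in hyperplasia, 1 to 3 in dysplasia and 1 to 4 in invasive carcinoma against normal, 0 to 1 in dysplasia against hyperplasia and 0 to 1 in carcinoma in situ against dysplasia. On plain library totals Gsdmd averaged 5.50 CPM in normal tissue.

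Signs turned in comparisons that passed no test: Gsdmd in carcinoma in situ against dysplasia (-0.091 with the replicate block, -0.012 to 0.16 with samples left out), Gsdmd in invasive carcinoma against carcinoma in situ (-0.013 by upper quartile, -9.3e-05 without the filter, -0.072 to 0.11), Gsdmc2 there (0.33 with the replicate block, 0.17 with limma-voom) and Gsdme there (0.14 with the replicate block, -0.17 to 0.064). Against hyperplasia, invasive carcinoma gave -0.017 for Gsdma (-0.012 to 0.14 with samples left out) and 0.13 for Gsdmd with the squamous score, and 0.033 for Gsdmd with the muscle score. Other left-out ranges that crossed 0 were -0.066 to 0.25 for Gsdma in carcinoma in situ against normal, -0.030 to 0.12 for Gsdmc and -0.24 to 0.61 for Gsdmc2 in carcinoma in situ against dysplasia, and -0.12 to 0.060 for Gsdme in dysplasia against hyperplasia. The cause was not tested.

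Genes called against normal were 2519 in hyperplasia (1667 with the squamous score, 4606 with limma-voom, 926 to 2876 with samples left out), 4540 in dysplasia (737 squamous, 725 muscle, 6831 limma-voom, 1282 to 5308), 6630 in carcinoma in situ (809 squamous, 2308 muscle, 4238 to 7306) and 8127 in invasive carcinoma (510 squamous, 1707 muscle, 3759 replicate block). They were 914 in dysplasia against hyperplasia (473 without the filter, 605 muscle, 2057 in the 2-group fit, 3584 limma-voom, 507 to 1486), 964 in carcinoma in situ against dysplasia (327 without the filter, 2218 muscle, 282 replicate block, 200 in the 2-group fit, 1537 DESeq2, 2241 limma-voom, 164 to 2201), 0 to 1 with samples left out in invasive carcinoma against carcinoma in situ, 6768 in invasive carcinoma against hyperplasia (481 squamous, 1553 muscle, 1684 replicate block) and 9384 over the 5 stages (2999 squamous, 5222 muscle). Normal sample 2 gave the lowest counts against normal. By upper quartile scaling the share of calls that were higher was 40.9% in place of 57.7% in dysplasia against hyperplasia and 67.8% in place of 54.8% in carcinoma in situ against dysplasia.

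The test for any stage difference lost Gsdma without the filter (adjusted p = 0.0537), with the squamous or muscle score (0.101 each) and with the replicate block (0.133), and Gsdmd without normal sample 1 (0.0527). Gsdma kept that call in 23 of the 30 fits that left out 1 sample. Its highest adjusted p among them, 0.0775, came without normal sample 2. With the replicate block Gsdmc2 in dysplasia against hyperplasia had an adjusted p of 0.0557, and Gsdmc in invasive carcinoma against hyperplasia 0.140. Gsdma in invasive carcinoma against normal was called with limma-voom (0.0341), and Gsdme in carcinoma in situ with the salivary score (0.0403). Same-numbered samples deviated from their stage means with a mean r of 0.027 over 31 pairs, against 0.0015 over 322 others. Single same-numbered pairs ran from -0.564 to 0.512, so these means gave no sign of pairing by number but cannot exclude it.

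The normal group has 3 samples. Depth limits Gsdma2, Gsdma3, Gsdmc3 and Gsdmc4, where 3 counts over a stage are worth 0.0173 to 0.0469 CPM.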
